A study of Mus musculus with 20 samples.

Results

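The 6 GATA factors of the mouse, Gata1 to Gata6, were followed in RNA-seq libraries of induced presomitic mesoderm (iPSM) colonies and embryonic stem cells (ESC) in which the circadian regulators CLOCK and BMAL1 could be switched on with doxycycline (dox). The members were taken by gene symbol, and each symbol had 1 row among the 55421 transcripts of the gene-body tables. The study comprised 20 libraries, 10 per cell type. In iPSM, the groups were tetO-Clock/Bmal1 (clones 12 and 20), tetO-Clock/Bmal1DN (clones 7 and 19) and a control line, each with 1000 ng/mL dox for 2 h and each untreated. In ESC, the groups were tetO-Clock/Bmal1 (clones 1 and 7), tetO-Clock/Bmal1DN (clones 5 and 6) and a control line, each with 500 ng/mL dox for 6 h and each untreated. Clock/Bmal1DN carries a dominant-negative Bmal1 in place of the intact one. All iPSM lines descended from E14TG2a ESC with a luciferase reporter under the Hes7 promoter (pHes7-luc), whereas the ESC lines were of KY1.1 origin. Parental line, dose and time therefore changed together with cell type, and cannot be told apart from it. Each clone gave 1 library with dox and 1 without, and the control line gave 1 of each, so that a group held 2 clonal lines at most and p-values measure the spread between clones.

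GATA factors are zinc-finger transcription factors that bind the sequence GATA flanked by A or T on one side and A or G on the other. Gata1, Gata2 and Gata3 are best known from blood: Gata2 maintains progenitors, Gata1 drives red cell and megakaryocyte maturation, and Gata3 directs T cells and also acts in trophoblast. Gata4, Gata5 and Gata6 act in heart and endoderm, and Gata6 with Gata4 can turn ESC into primitive endoderm. CLOCK and BMAL1 (gene symbol Arntl) form a heterodimer that binds the E-box CACGTG and drives the daily clock, which does not yet run in pluripotent cells. Presomitic mesoderm, the tissue that segments into somites, is marked by Tbx6, Msgn1 and Hes7 rather than by GATA factors.

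The libraries held 38.2 M to 47.8 M counts in iPSM and 40.3 M to 57.3 M in ESC. The untreated iPSM control stood apart, with reads in 69.4% of rows against 50.2% to 54.0% in the other 9 iPSM libraries. The untreated ESC control was lowest, with reads in 43.8% of rows against 49.3% to 53.0% in the other ESC libraries. CPM (counts scaled to library size by the trimmed mean of M values over all 20 libraries) of Tbx6 ranged from 12.7 to 71.7 in iPSM and from 0 to 0.425 in ESC, and those of Pou5f1 from 85.6 to 189 in iPSM and from 614 to 1016 in ESC. Arntl was at 2966 and 4287 CPM in treated iPSM Clock/Bmal1 clones, against 52.4 and 72.1 CPM untreated, and at 2415 and 4521 CPM in treated ESC clones, against 49.1 and 51.3 CPM untreated. In treated Clock/Bmal1DN clones it was at 828 and 143 CPM in iPSM, the low value in clone 19, against 39.1 and 61.9 CPM untreated, and at 1738 and 4467 CPM in ESC, against 58.5 and 46.8 CPM untreated. Clock was at 1614 and 2251 CPM in treated iPSM Clock/Bmal1 clones, against 92.3 and 96.5 CPM untreated, and at 767 and 628 CPM in treated ESC ones, against 42.9 and 63.0 CPM untreated. In iPSM Clock/Bmal1DN clones 7 and 19, Clock was at 954 and 985 CPM treated, against 105 and 101 CPM untreated. In ESC Clock/Bmal1DN clones 5 and 6 it was at 349 and 1646 CPM treated, against 38.3 and 41.8 CPM untreated. Reads of the transgene add to these values. The control line had Arntl at 18.8 CPM with dox and 17.97 CPM without in iPSM, and 41.4 CPM with dox and 42.6 CPM without in ESC.

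The members lie apart in the genome (mm10). Gata1 spans chrX:7959260-7967910 on the minus strand with 6 exons, and Gata2 spans chr6:88193891-88207032 on the plus strand with 6 exons. Gata3 lies at chr2:9857078-9878600 and Gata5 at chr2:180325133-180334699, both on the minus strand with 6 exons. Gata4 lies at chr14:63198922-63245248 on the minus strand with 7 exons, and Gata6 on chromosome 18, plus strand, also with 7 exons. Reads were counted over the whole gene body, introns included, which runs from 8.651 kb for Gata1 to 46.327 kb for Gata4.

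RefSeq promoter windows of build GRCm38.p6, from 250 bases before to 50 after an annotated start, were found for 4 of the 6 members. A window is printed for each of the 3 members with the highest fitted differences with Clock/Bmal1 induction. Whether the E-box has a part in these differences was not tested. The Gata5 window, chr2:180334630-180334929 on the minus strand, has 1 CACGTG, in capitals, at 138 to 133 bases before the start. The Gata2 window, chr6:88193641-88193940 on the plus strand, and the Gata3 window, chr2:9878551-9878850 on the minus strand, have none.

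Gata5: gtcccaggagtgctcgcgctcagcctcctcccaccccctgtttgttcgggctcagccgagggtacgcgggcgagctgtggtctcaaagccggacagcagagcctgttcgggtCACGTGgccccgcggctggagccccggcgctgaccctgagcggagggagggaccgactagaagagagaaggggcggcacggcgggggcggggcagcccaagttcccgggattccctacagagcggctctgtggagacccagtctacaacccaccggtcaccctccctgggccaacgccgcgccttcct

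Gata2: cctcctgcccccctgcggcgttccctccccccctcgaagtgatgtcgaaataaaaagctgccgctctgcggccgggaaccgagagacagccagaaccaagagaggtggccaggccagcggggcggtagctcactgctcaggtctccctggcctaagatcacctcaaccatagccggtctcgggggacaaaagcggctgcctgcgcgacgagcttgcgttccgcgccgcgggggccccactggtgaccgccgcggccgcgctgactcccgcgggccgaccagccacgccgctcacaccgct

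Gata3: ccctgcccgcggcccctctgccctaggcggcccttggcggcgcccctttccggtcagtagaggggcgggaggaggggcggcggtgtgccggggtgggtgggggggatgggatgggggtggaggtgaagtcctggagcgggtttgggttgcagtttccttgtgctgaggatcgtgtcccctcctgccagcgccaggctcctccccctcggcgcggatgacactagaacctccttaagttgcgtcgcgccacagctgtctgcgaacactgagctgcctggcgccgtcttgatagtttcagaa

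CACGTG, which reads the same on both strands, occurred in 7.15% of the 32851 RefSeq windows (2349 of them), in neither the Gata1 window nor a second Gata2 window, and in none of the 4 windows of Gm38708, a neighbour of Gata2. The GATA motifs AGATAA and TGATAA, searched on both strands, occurred in 11.2% and 9.05% of windows and in none of the windows of these 4 members. Forms ending in G were not searched, and the printed Gata3 window holds TGATAG. A match describes letters in these 300 bases and is not a binding site.

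GATA genes had low levels in both cell types. Over the 4 untreated transgenic clones, the deposited RPKM (reads scaled to library size and to gene body length, introns included) had medians of 0.00215 to 0.0160 in iPSM and 0 to 0.137 in ESC. The pluripotency factor Pou5f1 had median RPKM of 38.8 in iPSM and 153.8 in ESC. In iPSM, Gata6 was highest, with RPKM of 0.0111 at the lowest, 0.0160 at the median and 0.0230 at the highest clone. Below it came Gata2 with a median of 0.00994, Gata1 with 0.00594, Gata4 with 0.00541, Gata3 with 0.00516 and Gata5 with 0.00215 RPKM. Ranges of all neighbours in this iPSM order overlapped. In ESC, Gata1 led with RPKM of 0.101 at the lowest, 0.137 at the median and 0.256 at the highest clone. Gata2 followed at 0.0353 to 0.0525 RPKM, Gata3 at 0.0279 to 0.0334 and Gata4 at 0.0180 to 0.0190, and these steps did not overlap. Gata6, at 0.00691 to 0.0309 RPKM, overlapped Gata4, and Gata5 was last at 0 to 0.00656 RPKM. By median RPKM, 27.4% of all rows stood above Gata1 in ESC and 42.0% stood above Gata6 in iPSM. The ESC order of Gata2, Gata3 and Gata4 rests on scaling to gene body length, which is 13141, 21522 and 46326 bases. Their mRNA lengths are closer, at 3129, 3209 and 3367 bases. Mean CPM in the same clones, without scaling to length, ran the other way, at 0.614, 0.733 and 0.948.

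**Figure D1:**
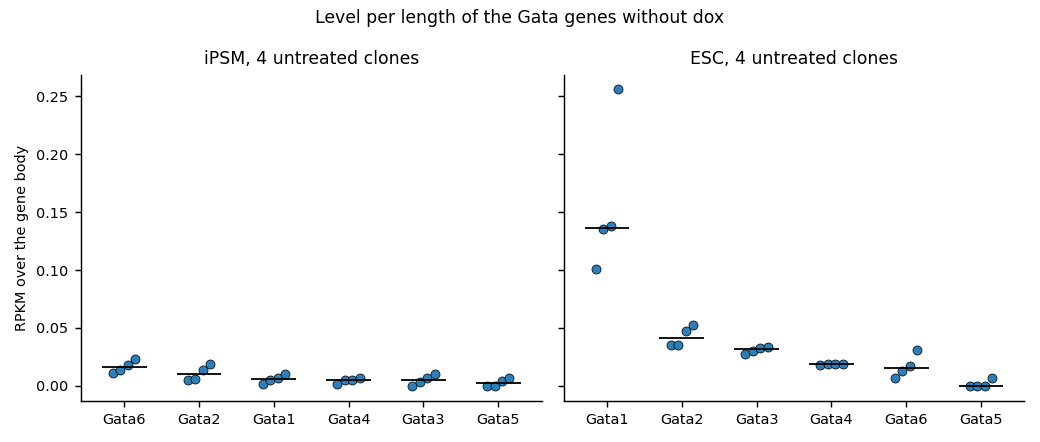
Deposited RPKM of the 6 GATA genes in the 4 untreated transgenic clones of iPSM (left) and ESC (right); points are clones and lines are medians. Gata1 is highest in ESC at a median of 0.137 RPKM, and in iPSM, where the ranges overlap, Gata6 is highest at 0.0160 RPKM.

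Gata1, Gata2, Gata3 and Gata4 were lower in untreated iPSM than in untreated ESC, while Gata5 and Gata6 did not pass the test. In these bulk libraries, fewer cells of a type and less RNA per cell cannot be told apart. Gata1 had 3, 4, 0.5 and 2 counts in the iPSM clones, against 125.5, 50.5, 50.5 and 57 counts in the ESC clones. All iPSM values lay below all ESC ones, and the fitted difference was -4.86 ± 0.45 on the log2 scale, with its SE (29.1-fold lower, edgeR quasi-likelihood test, Benjamini-Hochberg adjusted p = 2.75e-07). Gata3 had 11, 0, 5.5 and 4 counts in iPSM, against 34, 37.5, 31 and 34 counts in ESC, and fell by 2.72 ± 0.56 on the log2 scale (adjusted p = 0.000662). Gata4 had 15, 4, 10 and 12 counts in iPSM, against 50, 50, 36 and 42 counts in ESC, a log2 difference of -2.14 ± 0.36 (adjusted p = 0.000105). Gata2 had 12, 3, 3 and 9 counts in iPSM, against 35, 27, 20 and 33 counts in ESC, a log2 difference of -2.13 ± 0.55 (adjusted p = 0.00379). For each of these 3 genes all iPSM clones lay below all ESC clones. These 4 of 6 members stand beside a background in which 60.0% of 26814 tested genes passed. Of all tested genes 31.2% were higher and 28.8% lower in iPSM, so that being lower was common. Fibroblast feeder markers were lower as well, 9 of 12 passing and 0 higher, with a median log2 difference of -3.62. Their summed level was 110, 83.5, 106 and 105 CPM in untreated iPSM clones 12, 20, 7 and 19, against 159, 436, 169 and 826 CPM in untreated ESC clones 1, 7, 5 and 6. Their part in the lower values of the 4 members was not tested.

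Gata6 had 18, 21, 30 and 29 counts in iPSM clones, against 13, 33, 19 and 49 counts in ESC clones, and the groups overlapped (log2 difference -0.23 ± 0.38, adjusted p = 0.633). Gata5 had 5 counts over the 4 iPSM clones against 3 counts over the 4 ESC clones, a ratio of 1.64 with a 95% counting interval of 0.319 to 10.6 (adjusted p = 0.365). The Gata6 direction depended on which lines were set against each other. With the control lines added the log2 difference was 0.41. The iPSM control had 1.25 CPM of Gata6 with dox and 1.15 CPM untreated, above all 8 iPSM clone libraries at 0.341 to 0.774 CPM. The ESC control had 0.348 CPM with dox and 0.361 CPM untreated.

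**Figure D2:**
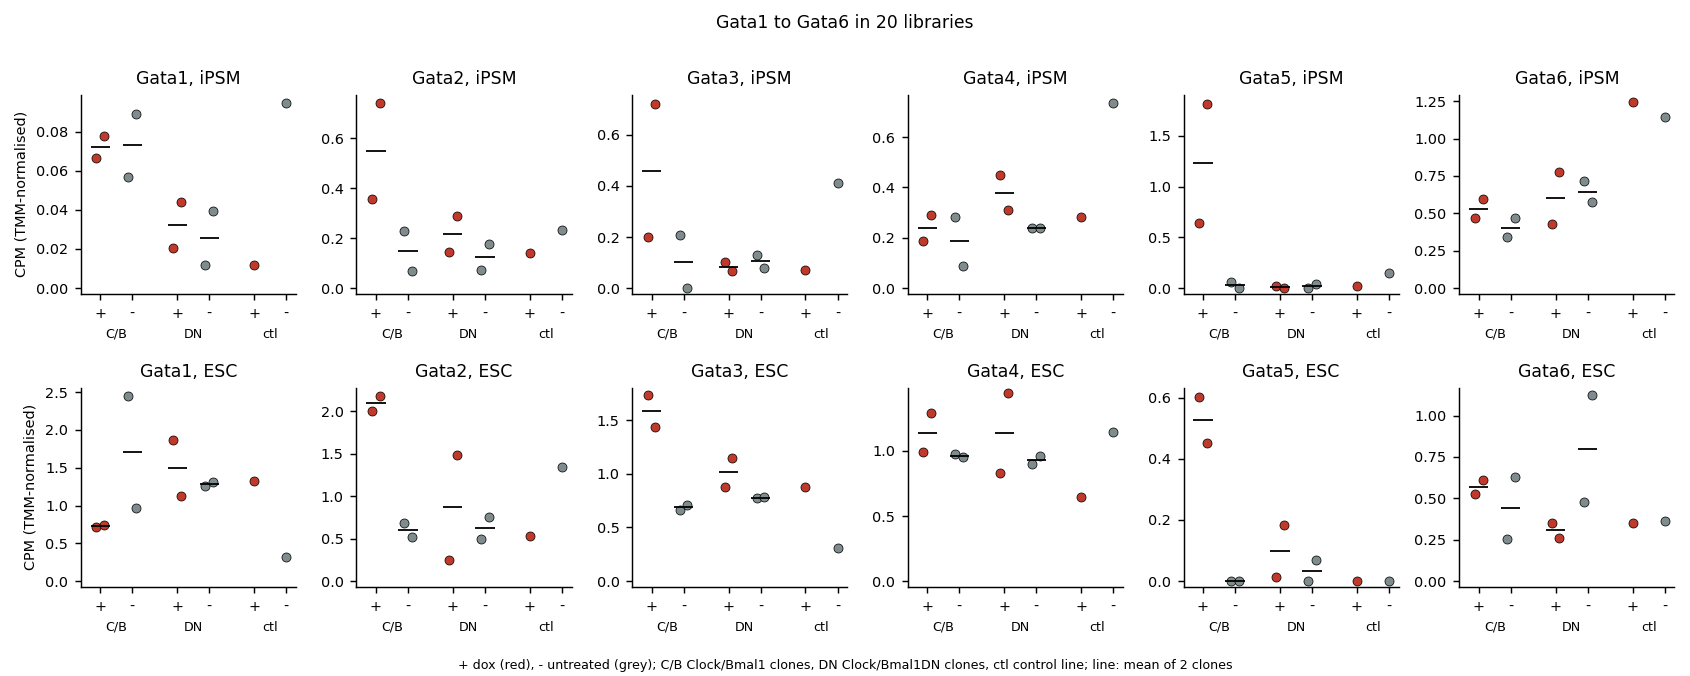
CPM of each GATA gene (columns) in iPSM (top) and ESC (bottom), with dox in red left of untreated in grey, for Clock/Bmal1 (C/B), Clock/Bmal1DN (DN) and control (ctl) lines; points are libraries, lines are means of 2 clones, and vertical scales differ between panels. Gata5 is at 0.644 and 1.81 CPM in treated iPSM Clock/Bmal1 clones and at 0.602 and 0.452 CPM in treated ESC ones.

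Gata5, a regulator of heart and endothelial development, was the 1 member that rose when intact Clock/Bmal1 was induced in iPSM. It had 29 counts in treated clone 12 and 93 counts in treated clone 20, against 3 and 0 counts in the same clones untreated. Mean levels were 1.23 ± 0.83 CPM with dox and 0.0284 ± 0.040 CPM untreated (SD, n = 2 each). Both treated values lay above every other iPSM library, the highest of which was the untreated control at 7 counts. Over the pair of clones the count ratio was 41.3, with a 95% interval for counting error of 13.8 to 203 (edgeR adjusted p = 0.0308). Clone 12 gave a ratio of 11.3 (3.52 to 58.2), and clone 20, measured against 0 counts, was at least 27.2-fold higher at a floor of 3 counts. The call rested on clone 20, since the adjusted p was 0.542 without its treated library and 0.0846 without its untreated one. Clone 20 had reads in 54.0% of rows treated and 50.2% untreated, the highest and lowest iPSM shares outside the untreated control. This pair also had more counts with dox of Gata2 (38 against 3), Gata3 (37 against 0) and Gata4 (15 against 4). The part of the difference in detected rows was not tested. Gata5 was 1 of 5 members tested, beside 1.03% of 24951 tested genes that passed in this comparison, 1.00% higher and 0.0281% lower. With clone as a replicate block, 402 genes passed in place of 257, and Gata5 had an adjusted p of 0.0112.

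In ESC, Gata5 was at low counts in treated Clock/Bmal1 clones and did not pass. Gata5 had 24 and 17 counts in treated ESC Clock/Bmal1 clones 1 and 7, against 0 counts in both untreated clones and in both control libraries. The treated sum of 41 counts was at least 18.3-fold above the untreated one at a floor of 3 counts over the group (edgeR adjusted p = 0.206). Clone 1 alone was at least 10.3-fold higher and clone 7 at least 7.91-fold. The ESC Clock/Bmal1DN clones had 0.5 and 7 counts treated, against 0 and 3 counts untreated. Adjusted p for Gata5 in ESC ran from 0.0578 with DESeq2 to 0.787 without 1 library, and was 0.000736 where genes with low counts were not filtered out. Part of the Gata5 gene body, 1843 bases, overlaps Gata5os on the opposite strand, and whether counting used strand is not given in the sources used here. Gata5os had 3 and 5 counts in the treated iPSM Clock/Bmal1 clones and 4 and 1 counts in the treated ESC ones, fewer than Gata5 in each.

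Gata2 was higher in every treated Clock/Bmal1 clone than in its untreated counterpart, in both cell types, without passing over all genes. In iPSM it had 16 and 38 counts in treated clones 12 and 20, against 12 and 3 counts untreated. The log2 difference was 1.88 ± 0.73 (edgeR adjusted p = 0.650), and the treated values lay above both untreated ones. Clone 12 gave a ratio of 1.56 (0.694 to 3.62) and clone 20 one of 11.1 (3.52 to 56.2). The log2 difference was 1.24 without treated clone 20, 1.29 without untreated clone 20 and 3.02 without untreated clone 12. Both iPSM Clock/Bmal1DN clones also had more Gata2 with dox, at 7 and 13 counts treated against 3 and 9 counts untreated (ratios 2.00, 0.456 to 12.0, and 1.62, 0.640 to 4.29). In ESC it had 80 and 82 counts in treated clones 1 and 7, against 35 and 27 counts untreated, or 2.09 ± 0.12 CPM with dox and 0.599 ± 0.12 CPM untreated (SD, n = 2 each). This log2 difference was 1.77 ± 0.66 (edgeR adjusted p = 0.549), and without the filter on low counts it passed (adjusted p = 0.0312). The ESC control line went the other way, with 23 counts treated against 56 counts untreated (ratio 0.396, 0.232 to 0.654), and its untreated level was 1.35 CPM.

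The long non-coding RNA Gm38708, on the strand opposite to Gata2, showed larger count ratios than Gata2. Its row in the tables, chr6:88188397-88190681, ends 3210 bases from Gata2, but its 4 RefSeq promoter windows lie between 88197334 and 88198534, inside the Gata2 gene body. Annotated Gm38708 transcripts thus start within Gata2 and run antisense to it. Since the strand setting of the counting is not given in the sources used here, reads of Gm38708 within the Gata2 body cannot be told apart from those of Gata2. In iPSM it had 35 and 63.5 counts in treated Clock/Bmal1 clones, against 0 counts in both untreated clones and 0 or 1 counts in the other 6 iPSM libraries. It rose, by at least 33.5-fold at a floor of 3 counts over the group (edgeR adjusted p = 0.0133). Without treated clone 20 the adjusted p was 0.200. In ESC it had 205.5 and 106.5 counts in treated clones, against 5 and 12 counts untreated, a ratio of 24.6 (15.1 to 42.8). The other 6 ESC libraries had 1 to 29.5 counts, below both treated clones. The ESC fit gave a log2 difference of 4.56 ± 0.98 and an adjusted p of 0.131, whereas DESeq2 gave 3.66e-05. In untreated clones Gm38708 was lower in iPSM, at 0 counts against 47.5 counts in ESC (adjusted p = 0.00106).

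**Figure D3:**
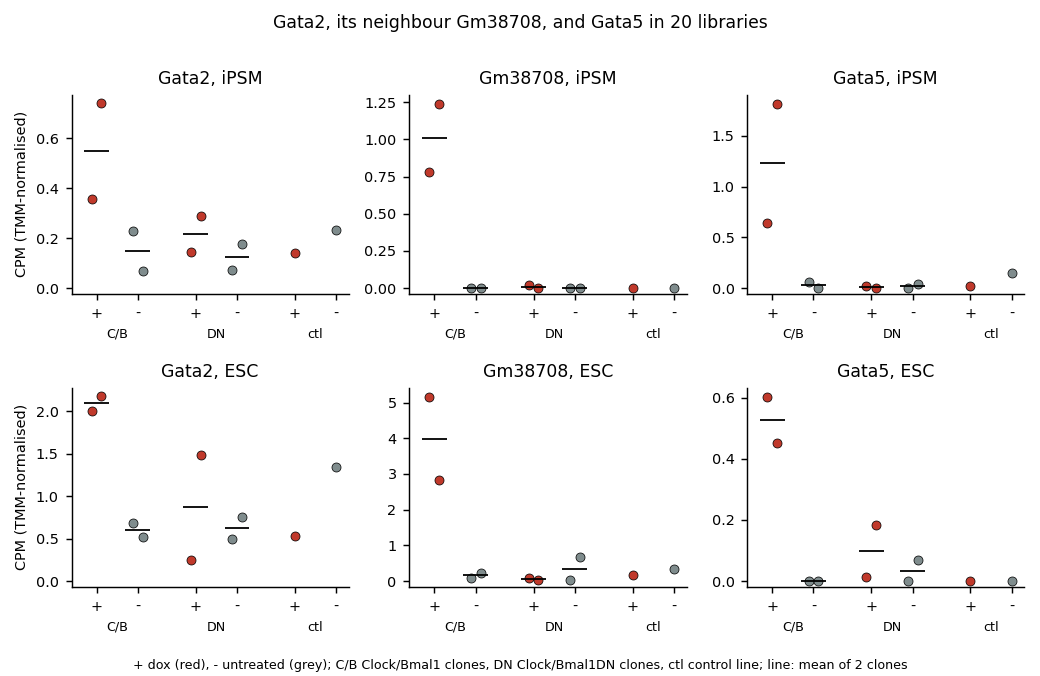
CPM of Gata2, its neighbour Gm38708 and Gata5 in iPSM (top) and ESC (bottom), with dox in red left of untreated in grey; points are libraries and lines are means of 2 clones. Gm38708 is at 0.777 and 1.24 CPM in treated iPSM Clock/Bmal1 clones and 5.15 and 2.83 CPM in treated ESC ones, above all other libraries of each cell type.

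Gata3, the T cell and trophoblast factor, had like values in both ESC clones and unlike ones in the iPSM clones. In ESC it had 69 and 54 counts in treated Clock/Bmal1 clones, against 34 and 37.5 counts untreated, with a log2 difference of 1.16 ± 0.37 (edgeR adjusted p = 0.409). Both treated ESC clones lay above both untreated ones, but the ESC control line had 38 counts treated against 13 counts untreated (ratio 2.82, 1.47 to 5.76). In iPSM the clones split: clone 20 had 37 counts treated against 0 counts untreated, at least 10.8-fold higher, and clone 12 had 9 counts treated against 11 counts untreated (ratio 0.960). The iPSM fit gave a log2 difference of 2.09 ± 1.00 (edgeR adjusted p = 0.976). Gm13256, which overlaps Gata3 by 1345 bases on the opposite strand, had 0 to 4 counts in every library.

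Gata1, the red cell factor, was the 1 member with a lower mean level in treated ESC Clock/Bmal1 clones, at 0.729 ± 0.021 CPM against 1.71 ± 1.05 CPM untreated (SD, n = 2 each). The counts were 28.5 and 28 in treated clones 1 and 7, against 125.5 and 50.5 untreated. The log2 difference was -1.24 ± 0.50 (edgeR adjusted p = 0.612), and single clones gave -1.68 and -0.34 on the log2 ratio scale with 2 counts added. The ESC control line again went the other way, at 57 counts treated against 13 counts untreated (ratio 4.22, 2.28 to 8.41). Untreated ESC libraries thus ran from 13 to 125.5 counts of Gata1. In iPSM, Gata1 was below the count filter and not tested, with 3 and 4 counts in treated Clock/Bmal1 clones against 3 and 4 counts untreated (ratio 1.02, 0.304 to 3.39).

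Gata4 and Gata6, the endoderm pair, did not pass with Clock/Bmal1 induction. Gata4 had 8.5 and 15 counts in treated iPSM Clock/Bmal1 clones against 15 and 4 counts untreated (log2 difference 0.39 ± 0.63, edgeR adjusted p = 1.00), and 39.5 and 48.5 counts in treated ESC clones against 50 and 50 counts untreated (0.23 ± 0.40, adjusted p = 0.901). Gata6 had 21 and 30.5 counts in treated iPSM clones against 18 and 21 counts untreated (0.44 ± 0.44, adjusted p = 1.00). In ESC it had 21 and 23 counts in treated clones against 13 and 33 counts untreated (0.33 ± 0.62, adjusted p = 0.909). In CPM, which allows for library size, groups overlapped for Gata6 in both cell types and for Gata4 in iPSM. In ESC, Gata4 was at 0.991 and 1.29 CPM treated, against 0.976 and 0.952 CPM untreated.

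Other transcripts within 10 kb of the members were low, apart from Neil2, a DNA glycosylase gene 5381 bases from Gata4 on the same strand. Neil2 had 336 and 287.5 counts in treated iPSM Clock/Bmal1 clones, against 326.5 and 230.5 counts untreated, and 481 and 364.5 counts in treated ESC clones, against 266 and 260 counts untreated. The log2 differences were 0.22 ± 0.24 in iPSM (edgeR adjusted p = 1.00) and 1.07 ± 0.31 in ESC (adjusted p = 0.340). The transcript 1010001N08Rik, 4833 bases from Gata6 on the opposite strand, had 31 counts in the untreated iPSM control and 0 to 2 counts in the other 19 libraries. Near Gata3, 4930412O13Rik on the opposite strand had at most 8.5 counts and 9230102O04Rik on the same strand at most 7 counts, reached in treated iPSM clone 20. Psmb6-ps, a pseudogene near Gata1 on the same strand, had at most 2 counts, and Gm44388, near Gata2 on the opposite strand, had 0 in every library.

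In the ESC Clock/Bmal1 comparison 0 of 6 members passed with edgeR and 0 with DESeq2, beside 0.421% of 22540 tested genes (0.404% higher, 0.0177% lower), and 4 of the 6, Gata1, Gata2, Gata3 and Gata5, had an unadjusted p under 0.05, against 7.48% of all tested genes. With clone as a replicate block, 154 genes passed in place of 95, and again 0 members. Clock/Bmal1 induction was also set between cell types. The test of iPSM minus ESC gave log2 differences of 0.05 for Gata2, 0.88 for Gata3, 0.12 for Gata4, 0.05 for Gata6 and 1.23 for Gata1, with adjusted p = 1.00 for all 6 members and 0 at an unadjusted p under 0.05. For Gata5 the fitted value was -2.35 ± 2.18, which depends on how the 0 counts of untreated ESC clones are treated. Of 26814 genes, 0 (0%) passed this test with edgeR, 1082 had an unadjusted p under 0.05, and 15 passed with DESeq2, none of them a member. A different response of any GATA gene in iPSM and ESC was therefore not shown, at differing doses and times.

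With the dominant-negative form, 0 members passed in either cell type. In iPSM 0 of 5 passed beside 0.00401% of all tested genes, and in ESC 0 of 6 beside 0.00444%, with 0 at an unadjusted p under 0.05 in both and 0 with DESeq2. The member with the lowest unadjusted p in ESC was Gata6, with 14 and 10 counts in treated Clock/Bmal1DN clones 5 and 6, against 19 and 49 counts untreated (log2 difference -1.41 ± 0.64, edgeR adjusted p = 0.981). Gata2 went apart between ESC clones, at 10 and 57 counts treated against 20 and 33 counts untreated. In iPSM, Gata5 had 1 and 0 counts in treated Clock/Bmal1DN clones against 0 and 2 counts untreated. Both treated iPSM Clock/Bmal1DN clones had less Arntl and less Clock than the treated Clock/Bmal1 clones. Arntl was lowest in clone 19, at 143 CPM, where Clock was at 985 CPM. The dox response with intact Clock/Bmal1 minus that with Clock/Bmal1DN gave 0 members passing in iPSM (0.281% of all genes) and 0 in ESC (0.0577%), with DESeq2 also at 0. The clone block gave 143 genes in place of 70 in iPSM and 25 in place of 13 in ESC, with 0 members in each. Gata5 was the 1 member with an unadjusted p under 0.05 in this difference in each cell type, against 3.42% of all tested genes in iPSM and 4.80% in ESC. The untreated Clock/Bmal1 and Clock/Bmal1DN clones differed in 0 members in iPSM (0% of all genes) and 0 in ESC (0.00887%), with 0 at an unadjusted p under 0.05 and 0 with DESeq2.

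Dox in the control line, 1 library a side and so without a test, came with differences in low GATA counts as large as some seen with the transgenes. In iPSM the log2 ratios with 2 counts added were -1.06 for Gata1, -0.54 for Gata2, -1.98 for Gata3, -1.24 for Gata4, -1.42 for Gata5 and 0.11 for Gata6. In ESC they were 1.92 for Gata1, -1.27 for Gata2, 1.36 for Gata3, -0.79 for Gata4 and -0.05 for Gata6, with Gata5 at 0 counts in both. The iPSM values compare with the untreated control that had reads in more rows than any other library. The ESC values compare with the untreated control that had reads in the fewest rows, 43.8%. The part of these libraries in the values was not tested. Gata5 in Clock/Bmal1 clones had log2 ratios of 2.86 and 5.38 in iPSM and 4.06 and 3.73 in ESC on this scale, beyond all of these control values. Gata2 in iPSM clone 20 and ESC clone 7, and Gata3 in iPSM clone 20, also lay above all control values, but not in the other Clock/Bmal1 clones.

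**Figure D4:**
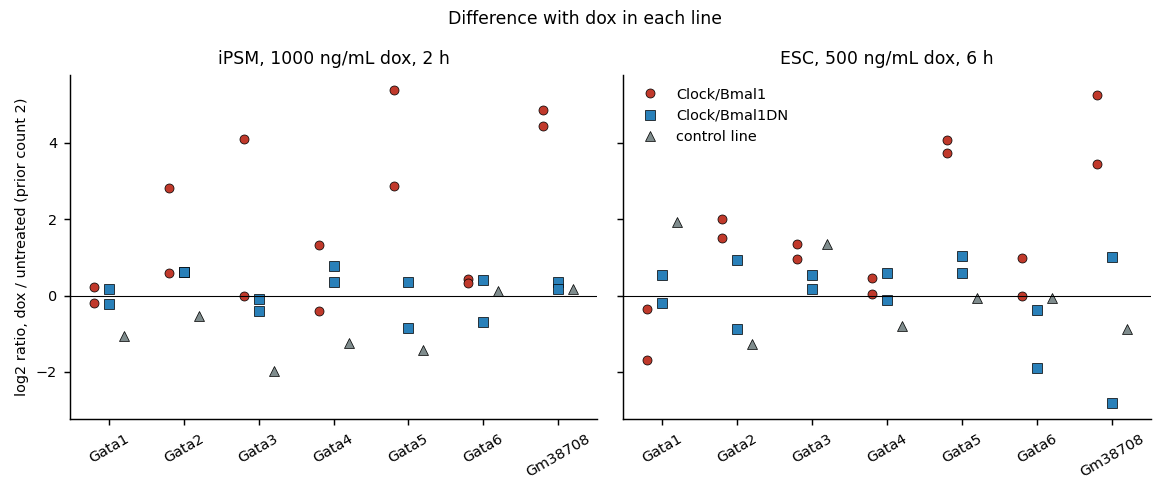
Log2 ratio of dox over untreated, with 2 counts added, for each GATA gene and Gm38708 in every clone and control line of iPSM (left, 1000 ng/mL for 2 h) and ESC (right, 500 ng/mL for 6 h); each point is 1 pair of libraries. Gata5 lies at 2.86 and 5.38 in iPSM Clock/Bmal1 clones and 4.06 and 3.73 in ESC ones, while control-line values of the members run from -1.98 to 1.92. Gata2 in iPSM clone 20 and ESC clone 7, and Gata3 in iPSM clone 20, also lie above the control-line values.

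Gata6 in ESC was read beside feeder markers, since fibroblasts can express Gata6. The summed level of 12 fibroblast markers ran from 96.9 to 826 CPM in ESC and from 78.7 to 110 CPM in iPSM, with 11 or 12 of the 12 detected in each library. The ESC library with most Gata6, untreated Clock/Bmal1DN clone 6 at 1.12 CPM, also had the highest fibroblast sum at 826 CPM, and the same clone with dox had 0.260 CPM of Gata6 and a sum of 130 CPM. Untreated Clock/Bmal1 clone 7, next at 436 CPM, had 0.628 CPM of Gata6. The part of these cells in the ESC Gata6 values was not tested. In the iPSM control, where Gata6 was highest, the fibroblast sums were within the 78.7 to 110 CPM of iPSM.

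**Figure D5:**
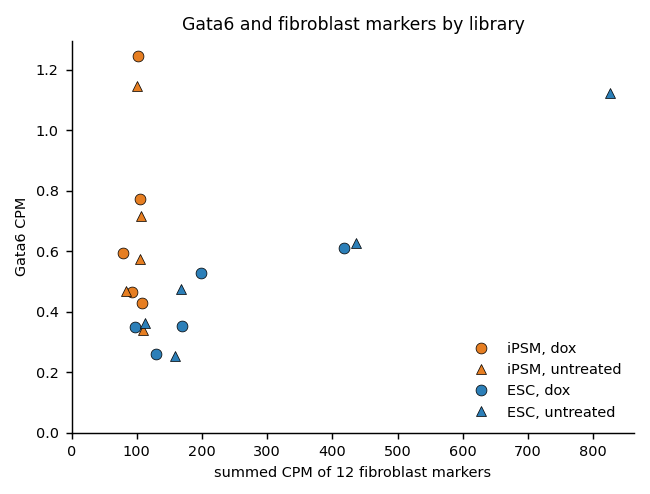
Gata6 CPM (vertical) against the summed CPM of 12 fibroblast markers (horizontal) in every iPSM and ESC library. Untreated ESC Clock/Bmal1DN clone 6 stands at 826 CPM of markers and 1.12 CPM of Gata6, and the control iPSM libraries stand highest in Gata6, at 1.25 CPM with dox and 1.15 CPM untreated, with low marker sums.

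Genes that work with or under GATA factors were read from 5 lists. With Clock/Bmal1 induction in iPSM, 1.03% of all tested genes passed. Of the lists, 1 of 17 tested haematopoietic and endothelial genes rose, 1 of 14 cardiac and lateral mesoderm genes rose, and 0 of 19 endoderm, 0 of 11 trophoblast and 0 of 16 cofactor genes passed. In this order the lists held 4, 5, 1, 2 and 2 genes at an unadjusted p under 0.05, against 5.56% of all tested genes, and DESeq2 passed 1, 1, 0, 0 and 0. Median log2 differences of the 5 lists were -0.04, -0.14, -0.25, -0.26 and -0.04, against -0.02 over all genes. The haematopoietic gene was Gfi1, a transcriptional repressor in blood development, with 38 and 109 counts in treated clones against 0.5 and 6 counts untreated (ratio 21.3, 10.1 to 53.9, edgeR adjusted p = 0.0143). Without treated clone 20 its adjusted p was 0.231. The iPSM Clock/Bmal1DN clones had 1 and 1 counts of Gfi1 with dox, against 6.5 and 8 untreated. In the difference from Clock/Bmal1DN, Gfi1 did not pass (log2 difference 7.11 ± 1.26, edgeR adjusted p = 0.0523). The iPSM control line had 17 counts of Gfi1 with dox and 26 untreated (0.400 and 0.547 CPM), between the untreated Clock/Bmal1 clones and treated clone 12 (0.844 CPM). The cardiac gene was Mef2c, a muscle and heart transcription factor, at 9.93 and 16.0 CPM in treated clones against 2.76 and 2.67 CPM untreated (log2 difference 2.28 ± 0.27, adjusted p = 0.00182). Mef2c also passed in the difference from Clock/Bmal1DN (2.58 ± 0.38, adjusted p = 0.0210), a call that 5 of 8 analyses without 1 library lost.

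In ESC, 0 of 16, 15, 16, 12 and 16 tested genes of the same lists passed with edgeR, beside 0.421% of all tested genes. The lists held 2, 1, 1, 0 and 3 genes at an unadjusted p under 0.05, against 7.48% of all tested genes, and DESeq2 passed 1 cardiac gene. Their medians were 0.42, -0.02, -0.04, -0.34 and 0.16, against -0.01 over all genes. Gfi1 had 75 counts over the treated ESC Clock/Bmal1 clones against 8 counts untreated (ratio 12.5, 6.05 to 30.1, edgeR adjusted p = 0.134). Mef2c had 512 against 69 counts (ratio 9.95, 7.73 to 12.99, adjusted p = 0.156).

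Between untreated iPSM and ESC, 31.2% of all tested genes were higher in iPSM and 28.8% lower, and the list counts stand beside these shares. Of 18 tested haematopoietic genes, 2 were higher in iPSM and 8 lower, with a list median log2 difference of -0.77 against 0.05 over all genes. Lmo2, a bridging partner of GATA factors in blood that the cofactor list also holds, was higher by 5.79 ± 0.35 on the log2 scale (edgeR adjusted p = 4.53e-09), with 16393.5 counts in iPSM against 299 in ESC. Alas2, the red cell enzyme of haem synthesis and a Gata1 target, had 57 counts in iPSM against 4 in ESC (3.78 ± 0.87, adjusted p = 0.00154). Gfi1b, a partner of Gata1 in red cell maturation, had 3 counts against 71 (ratio 0.0416, 0.00838 to 0.127). Cardiac and lateral mesoderm genes split into 4 higher and 9 lower of 17 tested (median -1.24). The 4 higher were Actc1 (log2 difference 3.89 ± 0.42), Tnni1 (3.53 ± 0.36), Mesp1 (2.26 ± 0.71) and Mef2c (2.10 ± 0.41). The heart factors Tbx20, with 19 counts in iPSM against 1020.5 in ESC (adjusted p = 5.33e-08), Tbx5, with 2 against 58 (adjusted p = 0.000956), and Hand1, with 1 against 42 (adjusted p = 0.00435), were all lower in iPSM.

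Endoderm genes were 5 higher and 8 lower of 20 tested in iPSM against ESC (median -0.19), beside 31.2% higher and 28.8% lower over all tested genes. Hnf4a, a liver and gut endoderm factor, had 14 counts in iPSM against 0 in ESC, at least 4.59-fold higher at a floor of 3 counts (edgeR adjusted p = 0.0192), and DESeq2 gave 0.112. Sox7, a primitive endoderm and endothelial factor, had 8 counts in iPSM against 72 in ESC (log2 difference -3.06 ± 0.68, adjusted p = 0.00118). Cer1, a secreted Nodal antagonist, had 30.5 counts in iPSM against 4 in ESC (2.92 ± 1.12, adjusted p = 0.0343), but 0.19 without untreated iPSM Clock/Bmal1 clone 20 (adjusted p = 0.820). Trophoblast genes were 1 higher and 7 lower of 12 tested (median -0.75). The 1 higher was Cdx2, which also marks posterior mesoderm (4.98 ± 0.47, adjusted p = 3.21e-07), and Ascl2 was among the lower (-4.74 ± 0.44, adjusted p = 3.14e-07). Cofactors were 8 higher and 5 lower of 16 (median 0.40). Zfpm1, the GATA cofactor FOG1, was higher in iPSM by 1.55 ± 0.21 on the log2 scale (adjusted p = 1.44e-05), and Mta3, a NuRD subunit, fell by 1.56 ± 0.20 (adjusted p = 9.22e-06).

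Genes whose log2 CPM followed a member most closely were listed as a description, for members averaging at least 0.5 CPM and other genes at least 1 CPM. Over the 10 ESC libraries, Gata1 was nearest to Bcas1 (Pearson r = 0.918), Rab9 and Cmtm6, and Gata2 to Ski (r = 0.953), Inpp5e and Mapre2. Gata3 was nearest to Tmem260 (r = 0.969), Bach1 and Gpx6, and Gata4 to Tesk1 (r = 0.948), Fbn2 and Chst15. Over 9 iPSM libraries, without the untreated control, Gata6 was nearest to Sppl2a (r = 0.972), Zfx and Cmc4. Points within a cell type share clones and a parental line, and libraries with and without dox were pooled. In ESC, Gata2 and Gata3 were highest in both treated Clock/Bmal1 clones, and the part of dox in their r was not tested. Each r is the highest among about as many candidates as there are expressed genes, 13077 in ESC and 12910 in iPSM.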

How the data were processed

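Total RNA (miRNeasy) was made into TruSeq Stranded Total RNA LT (Gold) libraries and sequenced as 101-bp paired ends on an Illumina NovaSeq, per the labels' protocols. The submitters' processing notes name bcl2fastq, STAR 2.7.2a, HOMER and mm10. The authors deposited estimated counts over gene bodies in steps of 0.5 (18.1% were not whole), and RPKM per gene body with introns. Library totals were 38.2 M to 57.3 M. Counts were rounded and fitted with edgeR 4.0.16 (R 4.3.3, TMM, filterByExpr, quasi-likelihood test) per cell type over 10 libraries (4 residual degrees of freedom), or over all 20 between cell types (8), with Benjamini-Hochberg adjustment over all genes tested and a threshold of 0.05. The fits were run on simulated counts with the same spread for every gene and no clone differences. The libraries differ from that setting, so the run does not give error rates for them. Low counts were compared by ratios scaled to library size with exact binomial 95% intervals, which cover counting error only. For log2 differences, ± is an approximate SE. It is the size of the log2 difference divided by the square root of the test's F statistic. DESeq2 1.42.0, RLE scaling, no filter, no control line, clone as replicate block and leaving out libraries were alternatives. Replicate libraries differed by more than sampling noise (lowest chi-square per degree of freedom 16.8). Same-clone libraries come from 1 line; their deviations correlated at 0.656 and -0.0954 (ESC Clock/Bmal1, Clock/Bmal1DN) and 0.309 and 0.326 (iPSM). All members, transcripts within 10 kb, the 3 most correlated genes and up to 3 genes per list that passed were named. The cardiac genes higher in untreated iPSM than in ESC were named in addition. The zinc-finger proteins were not analysed here. Members and lists were chosen with earlier results of these data known.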

Additional observations from a re-analysis of the deposited data

Results flagged for a closer look

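Gata3 did not pass with Clock/Bmal1DN induction in either cell type, but its log2 ratios with 2 counts added had opposite signs in the cell types. The iPSM clones 7 and 19 had 5 and 3 counts with dox, against 5.5 and 4 counts untreated (log2 ratios -0.42 and -0.10). The ESC clones 5 and 6 had 35 and 44 counts with dox, against 31 and 34 counts untreated (0.17 and 0.54). The difference of means, iPSM minus ESC, was -0.61 and was not tested. The counting intervals of all 4 ratios include 1, and the fitted iPSM difference was 0.11 when untreated clone 7 was left out.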

How the results depend on the processing

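Low counts limit most of these values: no member reached 100 counts in a library, except Gata1 in untreated ESC Clock/Bmal1 clone 1, and a group held 2 clones at most. Without the filter on low counts, 2 members passed in ESC with Clock/Bmal1 (Gata2, adjusted p = 0.0312, and Gata5, 0.000736); the cause was not tested. In iPSM, 0 to 1 member passed when single libraries were left out, with 0 without treated or untreated clone 20. Gata6 in iPSM against ESC turned to 0.41 with the control lines in the contrast and ran from -0.48 to 0.17 without single libraries. Other values that changed sign without single libraries had not passed: with Clock/Bmal1, Gata6 in ESC (-0.18 to 1.14) and Gata4 in iPSM (-0.18 to 1.47); with Clock/Bmal1DN in ESC, Gata1 (-0.23 to 0.53), Gata2 (-1.34 to 1.21) and Gata4 (-0.19 to 0.62), and in iPSM, Gata3 (-0.75 to 0.11) and Gata6 (-0.57 to 0.27). Adjusted p for Gata5 in iPSM minus ESC was 0.775 to 1.00. The 4 members lower in iPSM passed under every alternative run. Clone as a replicate block changed no member's call (Gata5 adjusted p = 0.0112 in iPSM and 0.107 in ESC), while genes passing became 402 against 257 in iPSM and 154 against 95 in ESC with Clock/Bmal1, 143 against 70 and 25 against 13 in the difference from Clock/Bmal1DN, and 1 against 0 in iPSM minus ESC. With no filter 601 genes passed in iPSM and 540 in ESC with Clock/Bmal1, and with DESeq2 351 in ESC. Over all alternatives, genes passing ran from 81 to 657 in iPSM and 7 to 540 in ESC with Clock/Bmal1, 1 to 8 and 0 to 467 with Clock/Bmal1DN, 8 to 271 and 0 to 411 in the difference of dox effects, 0 to 1729 and 0 to 46 between untreated clones, and 0 to 89 in iPSM minus ESC.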
